A study of Junonia coenia with 20 samples.

Results

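In Junonia coenia, the common buckeye butterfly, the hind wing was compared between the pupal wing before any pigment is visible and the wing late in ommochrome deposition, when its colour turns orange to red. The comparison holds 8 RNA-seq libraries of the 20 samples described, 4 per stage, and its libraries were taken by the stage named in the labels. Each stage has 2 libraries of the Linea morph and 2 of the Rosa morph, the tan and the red colour form between which this species changes with the season. All animals came from a North Carolina population raised on artificial diet, either at 21°C with 8 h of daylight or at 27°C with 16 h. Which morph came from which regime is not stated in the labels, which also do not give sex or exact pupal age, and do not say whether a library holds an animal or a pool. P-values below therefore measure the spread between libraries, which may be technical.

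A butterfly wing is covered by scales, each the cuticle secreted by an epidermal cell during pupal life. Scale cells lay down their cuticle first and fill it with pigment later, and in nymphalids the ommochromes, made from tryptophan by way of kynurenine, appear before the dark melanins. The transcripts carry identifiers of the authors' de novo assembly, which the deposited table does not pair with gene names or sequences. Levels are thus described by identifier, no role is given to any transcript, and the wing tissue could not be checked against marker genes. Several transcripts may come from the same gene, so a count of transcripts is not a count of genes. In whole wings, a lower level may mean fewer cells of a type or less RNA per cell, and these cannot be told apart.

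The 8 libraries differed among themselves as well as by stage. Their summed deposited RPKM (reads mapped to a transcript, divided by its length and by the reads of the library) ran from 499806 to 660463, and between 11339 and 13580 transcripts reached 1 RPKM. Along principal component 1, which took up 28.2% of the variance, the libraries numbered 2 lay above those numbered 1 in each of the 4 groups, with Rosa pre-pigment replicate 1 lowest at -132.5. Component 2 held 21.6% and placed the late libraries between -58.5 and -21.8. The pre-pigment libraries lay at 29.6, 75.3 and 93.5, except Rosa pre-pigment replicate 1, which lay among the late libraries at -36.1. Spearman correlations between libraries of different stages had a median of 0.675 over 16 pairs. Pairs of the same stage and morph had a median of 0.744, and the lowest of these 4 pairs, the Rosa pre-pigment replicates, was at 0.588.

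**Figure D1:**
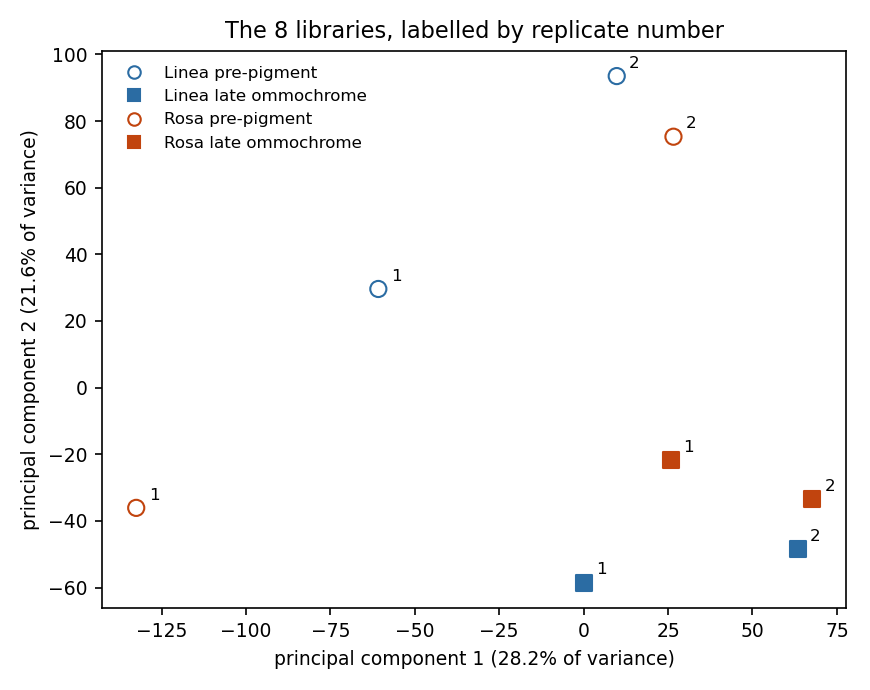
Principal components 1 and 2 of log2(scaled RPKM + 1) over the 14600 transcripts tested, 1 point per library, with circles for pre-pigment and squares for late ommochrome wings, blue for Linea and red for Rosa, and the replicate number beside each. Rosa pre-pigment replicate 1 lies apart at -132.5 on component 1, and the libraries numbered 2 lie to the right of those numbered 1 in every group.

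The replicate number was also tested. With stage and morph as terms, 3 transcripts were higher and 1 lower in the libraries numbered 2 (limma, adjusted p under 0.05, 0.0274% of 14600), and 17.7% of transcripts had an unadjusted p under 0.05 for the number. JC_0048950, chosen after its values were seen, had the highest mean level of all transcripts over the 8 libraries. It was at 98600, 87500, 61300 and 50300 scaled RPKM in the libraries numbered 2 and at 9920, 7500, 2680 and 7590 in those numbered 1, with no overlap. Its difference by number was 3.52 ± 0.46 log2 units (SE, limma adjusted p = 0.082), while its change between stages was 0.16 ± 1.32 (SE, limma adjusted p = 0.98). Early ommochrome libraries held 32100 to 74300, whatever their number. The labels do not say what the replicate number stands for.

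Between the pre-pigment and the late ommochrome wing, 50 transcripts rose and 100 fell. These are 0.342% and 0.685% of the 14600 transcripts tested, 1.03% together (limma with morph as a term, Benjamini-Hochberg adjusted p under 0.05, 8 libraries). The count rests on every library. Leaving out a Linea pre-pigment library (replicate 1 or 2) gave 52 or 36 calls, a Linea late library 81 or 35, a Rosa pre-pigment library 122 or 57, and a Rosa late library 45 or 48. The classes, shares and stage courses given for risers and fallers describe the calls made with all 8. Levels are given as scaled RPKM, the deposited RPKM divided by a factor per library, and changes as differences of log2(scaled RPKM + 1), which understates the change of low transcripts. The risers changed by a median of 3.56 log2 units (1.8 to 5.64) and the fallers by a median of 3.54 downward (1.76 to 6.94), against a median absolute change of 0.49 over all transcripts tested. In all, 1745 transcripts had an unadjusted p under 0.05 (limma). With the replicate number as a further term there were 2237 for the stage, fewer than the 2591 for the replicate number. At the threshold, the last transcript called had an adjusted p of 0.0499 and the first left out one of 0.0501.

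Large falls were more common than large rises. Of the 62 transcripts that differed more than 16-fold between stages, 46 were lower and 16 higher in late wings, and 33 of the former and 12 of the latter were called. Between 4-fold and 16-fold, 311 were lower and 273 higher, with 66 and 36 called. At the smaller differences of 2-fold to 4-fold the balance was the other way, with 1134 lower and 1398 higher, and there the test called 1 and 2. None of the 11422 transcripts within 2-fold was called. The smallest change called was 1.76 log2 units, and the lack of calls at small changes does not show that such changes were absent.

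Calls were concentrated among abundant transcripts. Of the 696 transcripts with a mean over 100 scaled RPKM across the 8 libraries, 4.6% fell and 1.58% rose. Between 10 and 100 scaled RPKM the shares were 0.897% of 6130 transcripts for falls and 0.522% for rises. Between 1 and 10 scaled RPKM they were 0.179% and 0.0966% of 7250 transcripts. Under a mean of 1 none of 524 was called, where the added pseudocount of 1 leaves little room for a change on this scale. The pseudocount also shrinks the changes of other low transcripts. The mean over the 8 libraries takes in the high stage of a called transcript, so level and call are not independent here. These shares describe the calls.

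**Figure D2:**
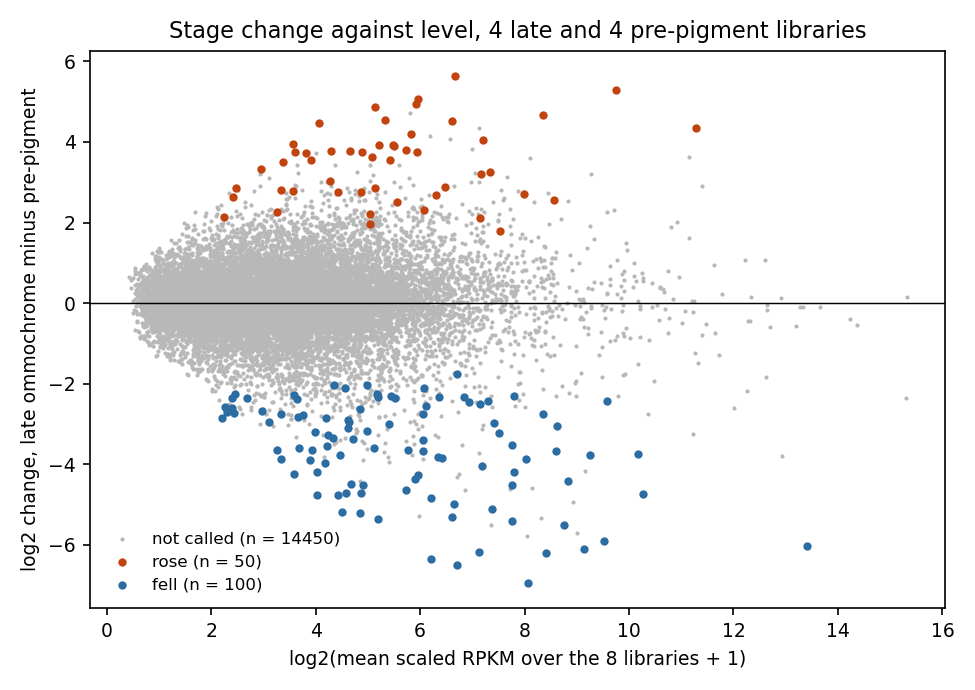
Log2 change from pre-pigment to late ommochrome wing (vertical axis) against log2 of the mean scaled RPKM over the 8 libraries plus 1 (horizontal axis), 1 point per transcript, with the 50 risers in red, the 100 fallers in blue and the rest in grey. Blue points reach further from 0 than red ones, down to -6.94 against 5.64.

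Fallers were the larger group in scaled values but not in RPKM as deposited. Quantile normalization gave 59 risers and 106 fallers, and scaling over the 8 compared libraries gave 53 and 102. In scaled values the median transcript changed by 0.033 log2 units between the stages. With RPKM as deposited the median transcript was shifted by 0.4 log2 units towards late wings, and 110 transcripts rose while 64 fell, so that risers made up 63.2% of the calls in place of 33.3%. All 50 risers and 59 of the 100 fallers described here were among those calls. The changes are thus relative to the median transcript. With all 16 libraries of the series in a single fit, 158 rose and 225 fell, among them 44 of the 50 risers and 97 of the 100 fallers.

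The libraries of the stages were well separated for nearly all called transcripts. All 4 late libraries lay above all 4 pre-pigment ones for 49 of the 50 risers, as they did for 4.26% of all transcripts tested. All 4 late libraries lay below for 99 of the 100 fallers, against 4.64% of all. The test favours such transcripts, so these counts describe the calls and add no evidence for them. The lowest late library of a riser stood a median of 1.77 log2 units above its highest pre-pigment library, and for fallers the corresponding gap was 1.82. Within a stage, the 4 libraries of a called transcript still spanned a median of 1.18 to 1.61 log2 units, close to the 1.41 and 1.54 of all transcripts in late and pre-pigment wings.

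A few transcripts behaved as switches. Of the 14600 transcripts tested, 5 switched in the direction of pigment deposition. They were under 1 scaled RPKM in all 4 pre-pigment libraries and at 5 or more in all 4 late ones. In the other direction, 7 were at 5 or more in all 4 pre-pigment libraries and under 1 in all 4 late ones. All of them were among the calls, against 1.03% of all transcripts tested. The limits require a large change with no overlap, so a call was likely in advance. The remaining calls did not meet these limits.

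JC_0049363 had the largest rise of all called transcripts. Its scaled RPKM was 2.26 and 3.31 in the Linea pre-pigment libraries and 3.08 and 2.95 in the Rosa ones. In late wings it was at 150 and 217 in Linea and at 151 and 276 in Rosa. All 4 late libraries thus stood far above all 4 pre-pigment ones, and the morphs overlapped at both stages. Pre-pigment libraries averaged 2.9 ± 0.454 and late ones 199 ± 60.1 scaled RPKM (SD, n = 4 per stage). The change was 5.64 ± 0.34 log2 units (SE, adjusted p = 0.0016 by limma). In the stages outside the comparison, it lay between 0.653 and 7.28 in the 4 larval discs and between 30.7 and 64.5 in the 4 early ommochrome wings. The early libraries therefore lay between the pre-pigment and the late ones with no overlap to either side.

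JC_0023857 was the most abundant riser in late wings. It was at 493 and 88.2 scaled RPKM in Linea and 213 and 95.6 in Rosa pre-pigment libraries, and at 3500 and 1270 in Linea and 3050 and 11200 in Rosa late libraries. The stages did not overlap, but Rosa late replicate 2 stood far above the other late libraries. The stage means were 222 ± 189 and 4760 ± 4410 scaled RPKM (SD, n = 4 per stage), and the change was 4.34 ± 0.77 log2 units (SE, adjusted p = 0.044 by limma). It made up 1.63% of the summed RPKM in Rosa late replicate 2 and at most 0.0646% in any pre-pigment library. In 3 of the 4 larval libraries it was between 8.08 and 10.8, with Linea larva replicate 3 at 178, and early ommochrome libraries held 707 to 2480. Of the 8 fits that leave a library out, it kept its call only without Linea pre-pigment replicate 1, with a log2 change of 3.76 to 5.03 and an adjusted p of 0.036 to 0.16 over the 8.

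JC_0091895 had the largest fall. In pre-pigment wings its scaled RPKM was 341 and 647 in Linea and 354 and 790 in Rosa. In late wings it was at 0.382 and 5.23 in Linea and at 2.98 and 6.92 in Rosa. Every pre-pigment library was high and every late one low, in both morphs. From an average of 533 ± 222 scaled RPKM it went to 3.88 ± 2.84 (SD, n = 4 per stage), which is -6.94 ± 0.57 on the log2 scale (SE, adjusted p = 0.0022 by limma). Larval discs held 3.04 to 9.14 and early ommochrome wings 0.85 to 12.6 scaled RPKM, both overlapping the late libraries. Among the 16 libraries of the series the transcript was thus high in the 4 pre-pigment ones alone.

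JC_0091643 was the most abundant transcript that fell. It was at 15300 and 24200 scaled RPKM in Linea and at 11700 and 33200 in Rosa pre-pigment wings, where it made up 1.82% to 4.26% of the summed RPKM. In late wings it was at 328 and 265 in Linea and at 72.5 and 1200 in Rosa. The stages did not overlap, and the late Rosa replicates lay on either side of the Linea ones. Averages were 21100 ± 9610 before pigment and 466 ± 501 scaled RPKM in late wings (SD, n = 4 per stage), a change of -6.04 ± 0.82 on the log2 scale (SE, adjusted p = 0.018 by limma). Larval discs were at 105 to 204, so that this transcript also was high before pigment and low on both sides of that stage. Early ommochrome wings were between 1240 and 3110 except Rosa early replicate 1, at 88.3. The call was lost without either Linea pre-pigment library, either Linea late library or Rosa pre-pigment replicate 2, with a log2 change of -5.23 to -6.84 and an adjusted p of 0.012 to 0.089 over the 8 fits that leave a library out.

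**Figure D3:**
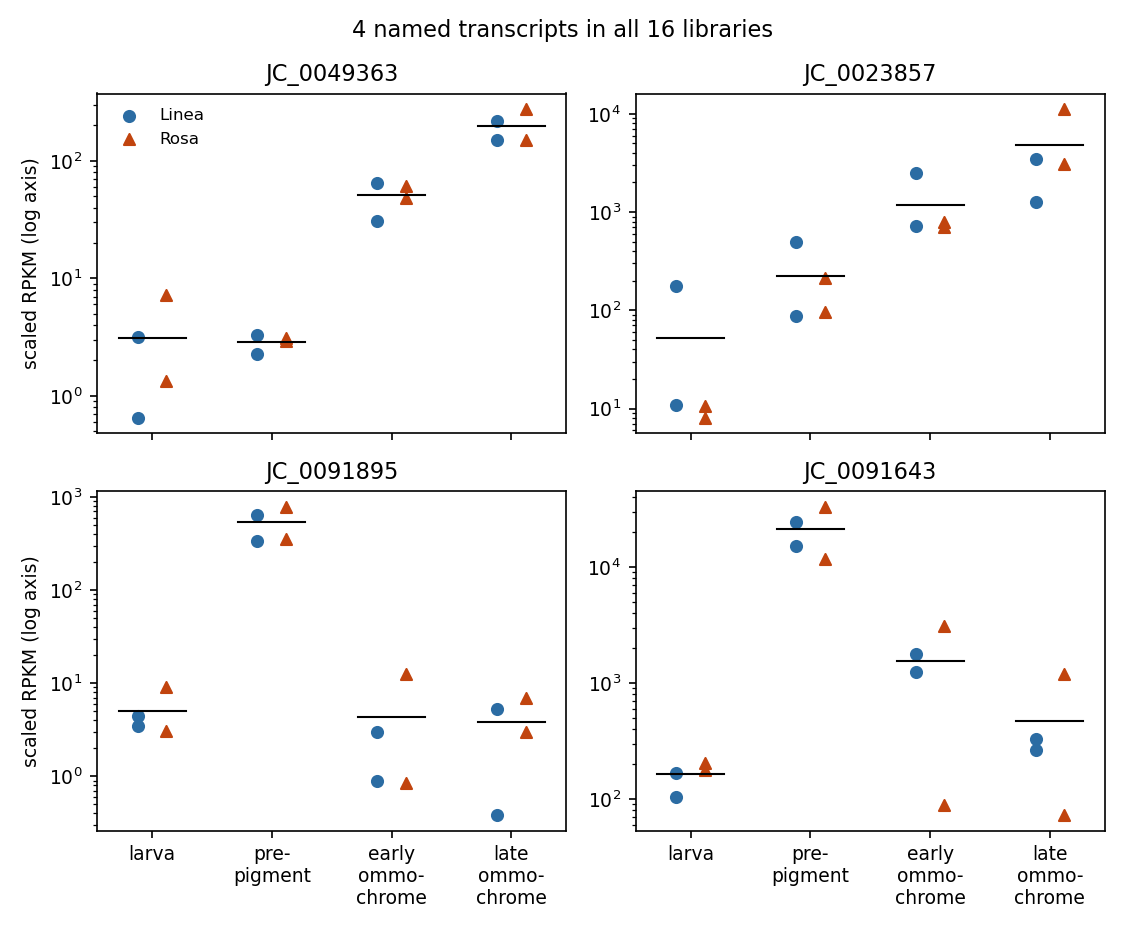
Scaled RPKM (log axis) of JC_0049363, JC_0023857, JC_0091895 and JC_0091643 in each of the 16 libraries by stage, with blue circles for Linea, red triangles for Rosa and a line at the mean of the 4 libraries. The upper pair rises to means of 199 and 4760 in late wings, and the lower pair peaks in pre-pigment wings at means of 533 and 21100.

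Each set held a larger share of the summed RPKM at its own high stage, and in late wings the 50 risers held more than the 100 fallers. The 100 fallers made up 4.47% and 6.65% of the summed RPKM in the Linea pre-pigment libraries and 4.72% and 6.88% in the Rosa ones. In late wings they made up 0.557% and 0.239% in Linea and 0.207% and 0.421% in Rosa. JC_0091643 alone held 2.01% and 2.65% in Linea and 1.82% and 4.26% in Rosa pre-pigment wings. The 50 risers went from between 0.0683% and 0.139% of the summed RPKM in pre-pigment libraries to 1.49% and 0.918% in Linea and 1.87% and 3.22% in Rosa late libraries. JC_0023857 alone held 0.675% and 0.152% in Linea and 0.53% and 1.63% in Rosa late wings. That transcript kept its call in 1 of the 8 fits that leave a library out. These shares use the calls of the same libraries and are a description.

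In the early ommochrome wings, which took no part in the comparison, the risers lay between their pre-pigment and their late level. The median of the 50 risers' stage means was 3.14 scaled RPKM in larval discs, 4.66 in pre-pigment wings, 36.8 in early and 71.7 in late ommochrome wings. By library, the median riser was at 1.57 to 4.06 in larvae and 2.89 to 4.52 in pre-pigment wings, then at 28 to 43.2 in early and 43.1 to 99.2 in late wings. Larval and pre-pigment libraries thus overlapped and were low, and early and late libraries were all high with a narrow overlap. Over all tested transcripts the medians of the stage means were 7.56, 8.62, 8.65 and 8.38. Early ommochrome and larval libraries share none with the comparison. The early mean was at least 2-fold above the larval mean in 43 of the 50 risers (86%) and at least 2-fold below it in 2, against 24.8% and 19.8% of all transcripts tested. The fallers leaned the same way (62%), so this was not particular to the risers. Both sets were chosen for a change between pupal stages, which favours transcripts that are high in a pupal stage. Larval discs had no such condition, and the shares over all transcripts were not matched by level. A level above that of larval discs was thus favoured by the choice, and these counts are a description.

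The fallers had a different course. The median of their stage means was 2.83 scaled RPKM in larval discs, 71.3 in pre-pigment wings, 10.9 in early and 4.76 in late ommochrome wings. By library the median faller was at 1.19 to 3.02 in larvae, 62.6 to 96 in pre-pigment, 8.04 to 12.4 in early and 3.36 to 6.23 in late wings. The pre-pigment libraries stood above those of every other stage, and the early libraries above the late and larval ones. The early mean was at least 2-fold above the larval mean in 62 of the 100 fallers, within 2-fold in 30 and at least 2-fold below in 8. The first of these shares, 62%, stood against 24.8% of all transcripts tested, and the last, 8%, against 19.8%. As for the risers, the choice favoured transcripts high in a pupal stage, and the full set was not matched by level.

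**Figure D4:**
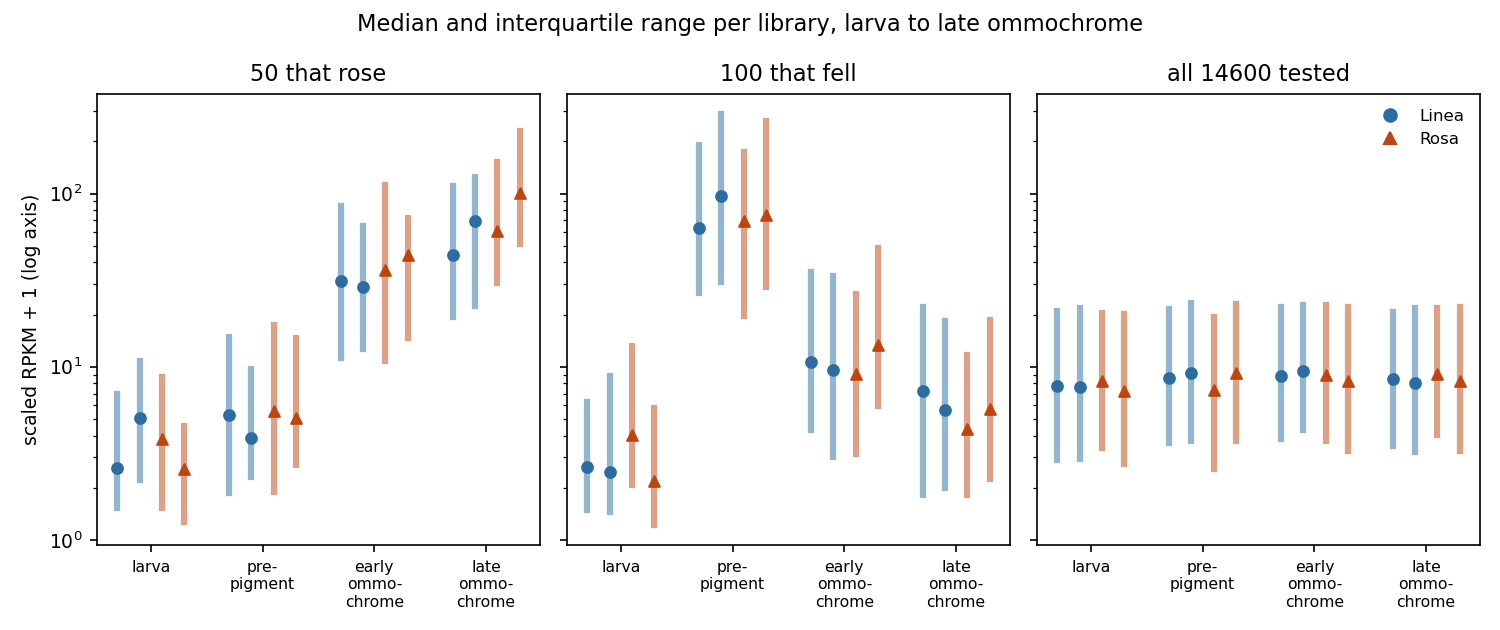
Scaled RPKM plus 1 (log axis) by library and stage for the 50 risers, the 100 fallers and all 14600 transcripts tested, with the point at the median transcript and the bar over the middle 50% of transcripts, blue circles for Linea and red triangles for Rosa. Risers are low in larval and pre-pigment libraries and high in both ommochrome stages, fallers peak in the 4 pre-pigment libraries, and the median of all transcripts stays level because of the scaling.

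The design also asks whether the stage change differs between the morphs. With 2 libraries per group, no transcript passed the threshold within Linea (limma, lowest adjusted p = 0.0673, 1193 transcripts at an unadjusted p under 0.05) or within Rosa (limma, lowest adjusted p = 0.0673, 1284 transcripts). No transcript passed the test of the difference between the morphs' changes (limma, lowest adjusted p = 0.348, 673 transcripts at an unadjusted p under 0.05). The morph difference averaged over both stages gave 0 calls as well (limma, lowest adjusted p = 0.999, 454 transcripts). These counts are 0% of the 14600 tested, and 4 libraries per morph leave wide intervals. With all 16 libraries in a fit, 110 transcripts were called in Linea (27 up and 83 down) and 95 in Rosa (44 up and 51 down), while the difference between the morphs and their average difference still gave 0.

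The named transcripts changed in the same direction in both morphs, with wide intervals for the difference. JC_0049363 rose by 5.6 ± 0.53 log2 units in Linea and 5.68 ± 0.53 in Rosa (SE), a difference of 0.08 with a 95% interval of -1.67 to 1.83. JC_0091643 changed by -6.03 ± 1.24 in Linea and -6.05 ± 1.24 in Rosa (SE), with an interval of -4.1 to 4.05 for the difference. JC_0091895 changed by -7.33 ± 0.84 in Linea and -6.56 ± 0.84 in Rosa (SE), with an interval of -2.01 to 3.55. JC_0023857 rose by 3.33 ± 1.04 in Linea and 5.35 ± 1.04 in Rosa (SE), with an interval of -1.41 to 5.44. None of these differences passed the test (adjusted p = 1 for each, limma), and the intervals allow differences of 2-fold or more in either direction for all of them. All 50 risers and all 100 fallers had changes of at least 2-fold in the same direction in each morph. The calls used both morphs, and the fit counts unlike changes in the morphs as spread. This count therefore describes the calls and adds no evidence that the morphs agree.

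After the tests within a morph had given 0 calls, transcripts were chosen in a morph by the size of their change and read in the other, which shares no library with it. No test was made on these counts. In Linea, 315 transcripts (2.16% of those tested) were at least 4-fold higher in late wings with no overlap of libraries and a mean of 5 scaled RPKM or more in the higher stage. In Rosa, 139 of these (44.1%) were at least 2-fold higher with no overlap, against 11.8% of all transcripts tested. In the other direction 15 were as much lower, a smaller share than the 9.3% of all transcripts that were. The 424 transcripts chosen as falling in Rosa (2.9% of those tested) were at least 2-fold lower in Linea without overlap in 221 cases (52.1%), against 11.5% of all. The 614 rising in Rosa (4.21%) recurred in Linea in 195 cases (31.8%), against 8.44% of all. Every choice required 5 scaled RPKM or more, while the shares over all transcripts had no such floor. The chosen and the full set were therefore not matched by level, here or for the falls in Linea below.

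The 692 transcripts chosen as falling in Linea (4.74% of those tested) recurred least. In Rosa 216 of them (31.2%) were at least 2-fold lower without overlap, against 9.3% of all transcripts. Another 60 were as much higher, a smaller share than the 11.8% of all transcripts that were. The median log2 change was -0.18 in Rosa and -2.96 in Linea. The Rosa value depends on the baseline library. Against Rosa pre-pigment replicate 2 alone the median change was -0.81, where over all transcripts tested it was -0.01. Against replicate 1 alone, the library that stood apart, it was 0.15, close to the 0.13 over all transcripts.

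The plot of the morphs showed a set apart. In 122 transcripts the level was at least 16-fold lower in Linea late wings but not 2-fold lower in Rosa. The reverse patterns were rarer, with 12 transcripts that rose in Linea alone by the same limits, 4 that fell in Rosa alone and 16 that rose in Rosa alone. None of these 122 was called in the comparison of stages, against 1.03% of all transcripts tested. Choosing unlike changes in the morphs made such a call unlikely in advance. The test of the difference between morphs called 0% of all transcripts, so the lack of calls there says nothing about the set. The set was chosen by these values after they were seen, so its levels are a description without a test.

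The level of these 122 transcripts also varied between replicates. Their median scaled RPKM was 51.4 and 56.8 in the Linea pre-pigment libraries but 0.0268 and 0.727 in the Linea late ones. In Rosa it was 1.86 and 22.9 in the pre-pigment libraries and 55.7 and 5.11 in the late ones, so that the replicates of each Rosa group lay far apart. Outside the comparison the median was 33.6 and 37.4 in the Linea early libraries and 26.8 and 2.27 in the Rosa ones. Larval discs held 8.69 and 31.1 in Linea and 0.846 and 2.93 in Rosa. In Linea late replicate 1, 114 of the 122 were under 1 scaled RPKM, while in Rosa late replicate 1 only 2 were and 110 were at 10 or more. The deposited table gives these transcripts no names.

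**Figure D5:**
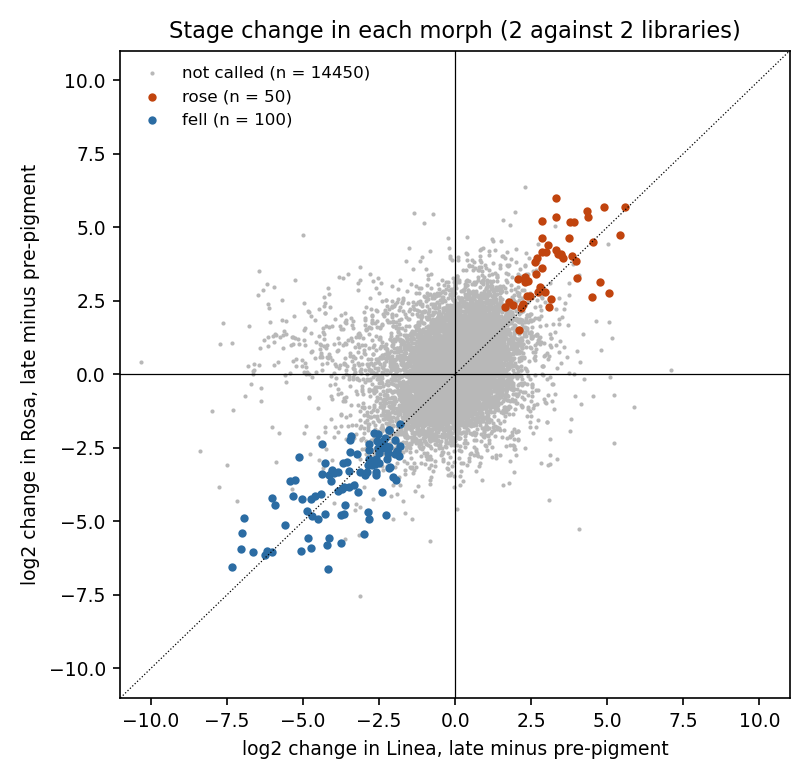
Log2 change from pre-pigment to late wing in Rosa (vertical) against Linea (horizontal), 1 point per transcript, each axis from 2 late and 2 pre-pigment libraries, with the 50 risers in red, the 100 fallers in blue, the rest in grey and a dotted line of equal change. The called transcripts, which were chosen using both morphs, lie along the line. A grey band at the left holds the 122 transcripts that fell at least 16-fold in Linea with no such fall in Rosa.

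Expression was on average somewhat less concentrated in the late libraries, but the difference did not pass its test. In each library the top 10 transcripts by level held 33.01%, 32.15%, 33.03% and 28.69% of the summed RPKM in pre-pigment wings (Linea 1 and 2, Rosa 1 and 2). In late wings they held 18.6%, 32.68%, 18.83% and 21.43%. Linea late replicate 2 lay within the pre-pigment range and the other late libraries lay below it. The means were 31.72% ± 2.06 and 22.88% ± 6.65 (SD, n = 4 each), a difference that did not pass an exact two-sided permutation test (p = 0.0857, adjusted p = 0.171 over 2 measures), where 4 against 4 libraries allow a smallest p of 0.0286. The number of transcripts at 1 RPKM or more was 12100 ± 560 in pre-pigment and 12810 ± 648 in late wings (SD, n = 4 each, exact two-sided permutation test p = 0.2, adjusted p = 0.2). This difference of 701.8 depends on the threshold, being 174.2 at 1 scaled RPKM (exact permutation p = 0.743) and 1202 at 5 RPKM (exact permutation p = 0.0857).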

How the data were processed

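Polyadenylated RNA of hind wings was made into double-stranded cDNA, sheared to 300 bp and read as paired ends of 75 bp or 100 bp, per the labels' protocols. The labels do not tie read lengths to libraries. The deposited values are RPKM, computed by the authors, and Bowtie 0.12.7 is named in the submitters' processing notes without its role or settings. How transcripts were assembled, RPKM estimated or rows filtered is not given in the sources used here. RPKM keeps no read counts. Low values showed no steps of whole reads (2595 values were between 0 and 0.001 RPKM, and no bin of ratios between libraries had more than 1.59% of them), so the depth is unknown, no counting interval is given and no count test was run.

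Each library was divided by a factor, the median of its ratios to the row geometric means. The median was taken over the 7126 transcripts that reached 1 RPKM in every one of the 16 libraries with values. Of 16251 transcripts, the 14600 at 1 RPKM or more in at least 2 of the 8 compared libraries were tested. limma 3.58.1 in R 4.3.3 was fitted to log2(scaled RPKM + 1) of the 8 libraries with stage and morph as terms (5 residual degrees of freedom), or with 4 group means for changes within a morph and their difference, with moderated variances, an intensity trend and Benjamini-Hochberg adjustment at 0.05. The fit was tested on simulated data. No columns were identical. The 4 samples without a column were not analysed here.

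In each direction, the named transcripts are the called one with the largest change and the one with the highest level, among those averaging 5 scaled RPKM or more where higher, a change of at least 2-fold and no overlap of libraries. Libraries were assigned by their labels, but the choice of this comparison and of the naming rules was made with earlier results of these data known. Alternatives were RPKM as deposited, quantile normalization, scaling over the 8 libraries, a pseudocount of 0.1, no filter, a mean of at least 5 scaled RPKM, all 16 libraries, array weights, no trend, a minimum change of 2-fold, group means, replicate blocks, libraries of a single number and each library left out. The choice of transcripts in a morph to be read in the other, and the set of 122, were added after the data were seen. Gene lists could not be matched, because the identifiers carry no names.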

Additional observations from a re-analysis of the deposited data

Results flagged for a closer look

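Among 26 sets of 4 libraries screened for a library far from the others, 2 were flagged, both for JC_0023857. Chance flags about 1 in 20 such sets where values follow a normal distribution. The values were screened without a log and their distribution was not tested, so the rate here is not known. Its scaled RPKM was 2480 in Linea early ommochrome replicate 2, where the other early libraries held 707 to 784. It was 178 in Linea larva replicate 3, where the other larval libraries held 8.08 to 10.8. Neither library is part of the comparison of pre-pigment with late wings.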

How the results depend on the processing

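The count of 150 changed transcripts stayed within 1.5 times under 11 of 16 alternatives that left out no single library. For 1 of the 11, a minimum change of 2-fold, this was certain, since every call was larger. It was 383 with all 16 libraries in the fit and 81 without the 2 pre-pigment libraries numbered 1, a choice made after seeing the data, 51 of them shared with the 150. It was 0 in the libraries numbered 1 only (1201 transcripts at an unadjusted p under 0.05) and 0 in those numbered 2 only (1799 transcripts), where 4 libraries leave 1 residual degree of freedom. There the log2 changes of JC_0049363, JC_0023857, JC_0091895 and JC_0091643 were 5.38, 3.33, -7.21 and -6.43 in number 1 and 5.89, 5.35, -6.67 and -5.65 in number 2. A similar count was not always the same list. Of the 174 calls with RPKM as deposited, 109 were among the 150. With quantile normalization 141 of 165 were, and with 4 group means 93 of 103. Leaving out a library gave 35 to 122 calls. In the order of replicates 1 and 2, leaving out a Linea pre-pigment library gave 52 and 36, a Linea late library 81 and 35, a Rosa pre-pigment library 122 and 57, and a Rosa late library 45 and 48.

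With the replicate number as a block across morphs, 204 transcripts were called, and with a block for each morph and number, 70. JC_0023857 had an adjusted p of 0.052 and 0.082 in these fits (limma) and the other named transcripts kept their calls. Deviations of same-numbered libraries of the same morph from their group means correlated at 0.141 in Linea and 0.0997 in Rosa, and across morphs at 0.174, 0.222, 0.242 and 0.383. All but the Rosa pair passed 0.1, and by a limit of 0.1 for every pair the numbers were not taken to pair the libraries. The counts with a block had been seen when this was decided. Within Linea the count of 0 became 1 with RPKM as deposited, 110 with all 16 libraries, 8 with array weights and 4 with the block by number. Within Rosa it became 2 with RPKM as deposited and 95 with all 16 libraries, and 0 to 1 with a library left out. The morph difference and the difference between the morphs' changes gave 0 calls under all alternatives run. JC_0023857 lost its call under 9 of 16 alternatives (adjusted p 0.022 to 0.6), JC_0091643 under 3, and JC_0049363 and JC_0091895 under the 2 single-number fits alone. The difference in the share of the 10 most abundant transcripts was -12.1 to -7.407 percentage points with a library left out and passed the exact permutation test only without Linea late replicate 2 (p = 0.0286). The number of transcripts detected differed by 444 to 960.7 with a library left out. RPKM gives no depth, so whether low transcripts could be measured in each library is not known.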

Other observations

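Called transcripts were unevenly spread over the identifiers of the assembly. The range from JC_0090000 up to JC_0100000 held 11.8% of the transcripts tested but 40 of the 100 fallers and 2 of the 50 risers. The range from JC_0110000 up to JC_0120000 held 14.8% of those tested, 19 risers and 6 fallers. The range that starts at JC_0000000 held 14.4% of those tested, 0 risers and 2 fallers. The ranges were set after the values were seen, and no test was made.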
